A study of Mus musculus with 18 samples.

Results

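The genes described here are 7 Kruppel-like transcription factors, Klf2, Klf3, Klf4, Klf6, Klf7, Klf10 and Klf13, measured in mouse striatum after cocaine. They are 7 of the 12394 genes that the table reads by symbol, and the family was chosen with earlier results of these data known. Its members were taken by symbol, as every probe set annotated to only 1 of these symbols. This gave 17 of the 22690 probe sets in the table, namely 4 for Klf7, 3 each for Klf3, Klf6 and Klf13, 2 for Klf4 and 1 each for Klf2 and Klf10. A probe set is a group of short probes that together read 1 transcript. The samples were 18 Affymetrix arrays of striatum including the nucleus accumbens, each labelled as a biological replicate, from littermate mice of 10 to 20 weeks. There were 6 mutant animals given cocaine, 3 mutant animals given saline, 6 control animals given cocaine and 3 control animals given saline. Cocaine, a psychostimulant that blocks dopamine reuptake, was injected intraperitoneally at 25 mg/kg, and tissue was taken 1 hour after the injection. The series is titled as a study of the loss of CaMKIV, the calcium and calmodulin dependent kinase encoded by Camk4. How the mutation was made and in which cells it acts is not given in the sources used here.

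Kruppel-like factors bind GC-rich and CACCC-containing DNA through zinc fingers at their carboxyl end, which are closely alike between paralogues. Their amino ends differ and recruit different coactivators or corepressors, so that some members mainly activate and others mainly repress transcription. Several are induced rapidly by growth factors, calcium entry or synaptic activity, and in central neurons members of the family promote or restrain axon growth.

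Genotype and treatment were taken from the sample titles, because the separate description lines named the same pair in 0 of 18 samples. By their titles, 12 arrays carry Arabic numbers, 3 in each group, and the other 6, all from cocaine animals, carry Roman ones. Every level below is a log2 GCRMA value, on which a step of 1 is a doubling, and array medians lay between 4.98 and 5.19. On the brightest Camk4 probe set, levels ran from 6.85 to 7.69 in mutant and from 7.52 to 7.76 in control cocaine animals, and from 7.14 to 7.47 in mutant and from 7.59 to 7.72 in control saline animals. It thus did not fall to background in the mutant and did not pass the test after cocaine, where 0% of all kept probe sets passed. Its difference was -0.39 ± 0.10 (SE, limma unadjusted p = 0.0019, adjusted p = 0.427). The other kept Camk4 probe set ran from 3.80 to 6.10 in mutant and from 5.46 to 7.00 in control cocaine animals. Its difference was -0.75 ± 0.31 (SE, limma unadjusted p = 0.0268, adjusted p = 0.427). Mutant cocaine replicate 5 stood apart. Its actin 3' minus 5' difference, which rises as RNA shortens, was 3.59, against 1.57 to 1.91 in the other Roman-numbered arrays, 2.14 to 2.55 in the Arabic-numbered cocaine arrays and 1.89 to 2.41 in the saline arrays. Of the 17 Klf probe sets, 13 passed the filter on dim signals (log2 above 4 in at least 3 arrays), and each of these was above that level in at least 17 of 18 arrays. No Klf probe set was therefore kept through 1 group only.

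Klf10 was the member most clearly separated by cocaine. This factor, also known as TIEG1, is an early target of TGF-beta and represses transcription through the Sin3 corepressor. Its 1 probe set ran from 7.87 through a median of 8.04 to 8.63 in mutant cocaine animals, against 7.00, 7.09 and 7.51 in mutant saline animals. In control animals it ran from 7.82 through a median of 8.28 to 8.55 after cocaine, against 7.22, 7.69 and 7.72 after saline. Every cocaine array thus lay above every saline array, within each genotype and over both. Among the kept probe sets, 0.41% were higher in all cocaine arrays than in any saline array, and Klf10 was the 1 member of the 13 among them.

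Averaged over genotypes, cocaine left Klf10 0.64 ± 0.13 log2 units above saline (SE), which is 1.56-fold with a 95% interval from 1.29 to 1.89. Its limma adjusted p over all kept probe sets was 0.0581, so it did not pass the threshold of 0.05, and 0 of the 13 Klf probe sets did. In this comparison 0.221% of all kept probe sets passed. At an unadjusted p under 0.05 there were 4 members (Klf10, Klf4, Klf2 and 1 probe set of Klf13), all higher after cocaine, while 5.09% of all probe sets reached that level. An ordinary linear model also passed 0 members. The Klf10 difference is estimated from the 12 Arabic-numbered arrays, in which it had a limma adjusted p of 0.0171 when fitted alone, where 3.39% of all kept probe sets passed. Without mutant cocaine replicate 5 its adjusted p was 0.0161, where 2.86% passed. Its unadjusted p was 1.42e-04 in the fit of all arrays, 1.86e-04 in the Arabic-numbered arrays and 1.33e-04 without that replicate.

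**Figure D1:**
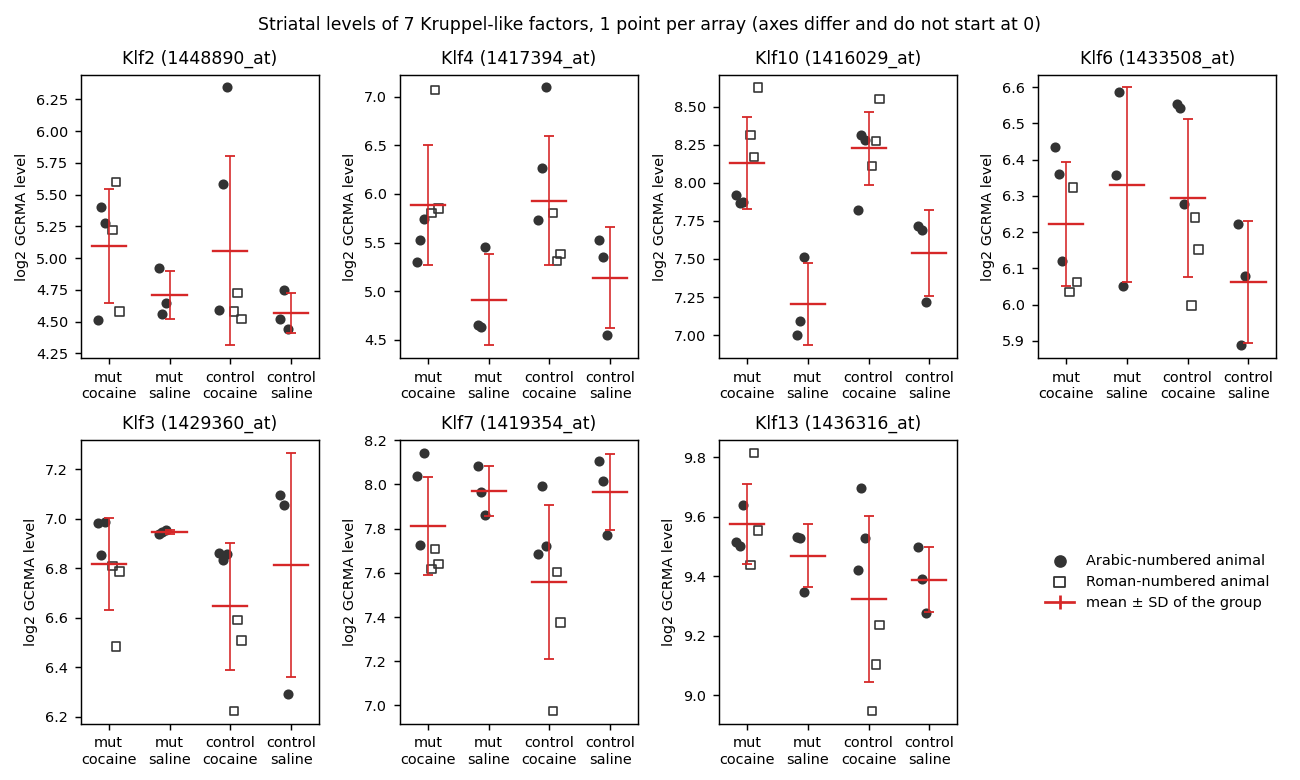
Log2 GCRMA level (vertical axes, which differ and do not start at 0) of the brightest kept probe set of each Kruppel-like factor in every array, by genotype and treatment, with filled circles for Arabic-numbered and open squares for Roman-numbered animals and the mean ± SD of each group in red. Klf10 is the 1 panel in which all cocaine arrays, from 7.82 upward, lie above all saline arrays, which reach 7.72.

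Klf4 had a larger average difference than Klf10 and a much wider spread. Klf4 is a growth-arrest factor of epithelia, one of the reprogramming factors for pluripotency and a restraint on axon growth in central neurons. Its kept probe set ran from 5.30 through a median of 5.77 to 7.07 in mutant cocaine animals, against 4.63, 4.65 and 5.45 in mutant saline animals. In control animals it ran from 5.31 through a median of 5.77 to 7.09 after cocaine, against 4.55, 5.35 and 5.53 after saline. The groups overlapped in both genotypes when all cocaine arrays were counted.

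The averaged Klf4 difference was 0.92 ± 0.33 (SE, 1.89-fold, 95% interval 1.17 to 3.06), with a limma adjusted p of 0.845. The 3 highest Klf4 arrays were control cocaine replicate 3 at 7.09, mutant cocaine replicate 5 at 7.07 and control cocaine replicate 2 at 6.27. These 3 arrays also had the highest actin 3' minus 5' differences, 2.53, 3.59 and 2.55. With that actin difference as a further term Klf4 was at 0.78 ± 0.27, and without mutant cocaine replicate 5 it was at 0.92 ± 0.26 with an adjusted p of 0.0757. That array is Roman-numbered, and in this fit the averaged difference rests on the Arabic-numbered arrays. Leaving out that array could therefore change only the SE and the adjusted p. The part of RNA length in the Klf4 difference was not tested further. The second Klf4 probe set lay below the filter on every array, yet its highest values, 3.97, 3.60 and 3.48, were those of mutant cocaine replicate 5 and control cocaine replicates 3 and 2, and saline values lay between 2.46 and 2.55. Fitted without the filter, its averaged difference was 0.37 ± 0.24 (SE, adjusted p = 0.866).

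Klf2, which blood flow induces in endothelial cells and which keeps T cells quiescent, had the same average difference as Klf10 with a wider spread. Its levels ran from 4.51 through a median of 5.25 to 5.60 in mutant cocaine animals, against 4.56, 4.64 and 4.93 in mutant saline animals. In control animals they ran from 4.52 through a median of 4.66 to 6.34 after cocaine, against 4.45, 4.52 and 4.75 after saline. Control cocaine replicates 1, 4, 5 and 6 lay within the control saline range, at 4.52 to 4.73, and replicates 2 and 3 lay above it, at 5.585 and 6.34. Mutant cocaine replicate 6 lay within the mutant saline range at 4.58, and replicate 1 below it at 4.51. The averaged difference was 0.64 ± 0.27 (SE, 1.56-fold, 95% interval 1.05 to 2.32), with a limma adjusted p of 0.859. Without control cocaine replicate 3, the highest array for both genes, Klf2 was at 0.40 ± 0.22 and Klf4 at 0.67 ± 0.29.

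Because Klf2 and Klf4 are both genes of vessel walls, endothelial markers were set beside them. Of 14 listed markers 9 were kept, and 0 of these passed in either direction for cocaine averaged over genotypes, with 7 of 9 above 0. Their median was 0.11, against 4.01e-05 over all kept probe sets. Their summed linear level ran from 1967 to 2195 in mutant cocaine, from 1949 to 2381 in mutant saline, from 1917 to 2321 in control cocaine and from 1945 to 1989 in control saline arrays. The defining markers Pecam1, Cdh5, Kdr and Tie1 were below the filter. In such bulk tissue, more cells of a type and more RNA per cell cannot be told apart.

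The promoters of Klf2, Klf4 and Klf13 are shown because these 3 hold the half-site of the cAMP response element, the sequence bound by CREB, on which CaMKIV acts. RefSeq promoters of build GRCm38.p6 were found for 6 of the 7 genes, all but Klf10. Each line gives the 250 bases before the annotated start on the gene's own strand, 5′ to 3′, with the half-site TGACG, on either strand, in capitals.
Klf2 (chr8:72318812-72319061, plus strand): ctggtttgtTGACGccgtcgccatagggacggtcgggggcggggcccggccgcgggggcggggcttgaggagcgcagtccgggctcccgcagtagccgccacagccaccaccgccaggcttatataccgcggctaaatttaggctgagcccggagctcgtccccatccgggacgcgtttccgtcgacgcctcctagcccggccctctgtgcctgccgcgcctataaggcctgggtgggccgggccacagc
Klf4 (chr4:55532476-55532725, minus strand): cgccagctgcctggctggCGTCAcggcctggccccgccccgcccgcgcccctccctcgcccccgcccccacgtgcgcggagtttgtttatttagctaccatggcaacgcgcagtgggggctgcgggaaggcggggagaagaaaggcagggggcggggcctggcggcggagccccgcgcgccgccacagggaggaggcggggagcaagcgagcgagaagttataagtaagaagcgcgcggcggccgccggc
Klf13 (chr7:63938916-63939165, minus strand): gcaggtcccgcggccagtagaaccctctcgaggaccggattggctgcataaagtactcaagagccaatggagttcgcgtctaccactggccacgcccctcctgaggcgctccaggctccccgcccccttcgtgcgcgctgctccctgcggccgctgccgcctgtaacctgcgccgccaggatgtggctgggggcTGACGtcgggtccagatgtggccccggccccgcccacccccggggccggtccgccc

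The half-site began 241 bases before the start in Klf2, 232 in Klf4 and 56 in Klf13, and it was in 17.8% of the 32851 promoter windows of this length. The full element TGACGTCA was in 0 of the 6 Klf windows and in 1.55% of all windows. The CArG box, which serum response factor binds, was likewise in 0 of 6 and in 1.47% of all. The GC box GGGCGG, a site of the Sp and Kruppel-like factors themselves, was in all 6 Klf windows, with 6 matches in Klf3, 4 in Klf4, 3 in Klf13, 2 in Klf2 and 1 each in Klf6 and Klf7, and in 32.7% of all windows. The other family site, CACCC, was in 4 of 6, none of them Klf4 or Klf6, and in 52% of all windows. GC content was 59.2% in Klf7, 64.8% in Klf6 and 71.2% to 78.4% in the other 4, against a median of 52.4% over all windows. All motifs were searched on both strands, and a match describes the letters only.

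**Figure D2:**
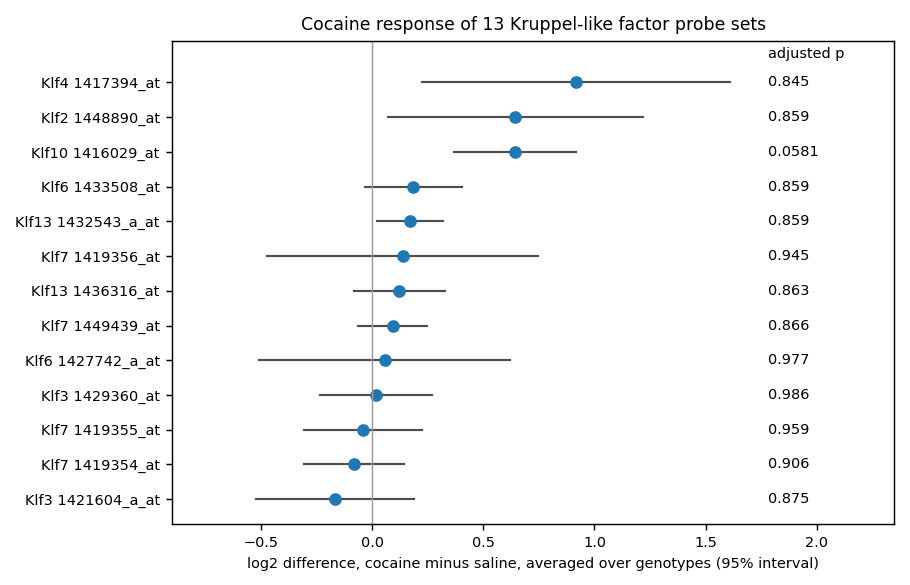
Cocaine minus saline difference averaged over genotypes (horizontal axis, log2) for the 13 kept Kruppel-like factor probe sets, with points for the limma estimate, lines for its 95% interval and the adjusted p at the right. Klf4, Klf2 and Klf10 lie highest, at 0.92, 0.64 and 0.64, and Klf10 has the narrowest interval of these 3.

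Averaged over genotypes, Klf6, Klf3 and Klf7 differed little between cocaine and saline. Klf6, a wound-response factor and a tumour suppressor in human cancers, had 2 kept probe sets. The brighter one ran from 6.04 to 6.43 in mutant cocaine and from 6.00 to 6.55 in control cocaine animals, against 6.05 to 6.59 in mutant saline and 5.89 to 6.22 in control saline animals, so cocaine and saline animals overlapped in both genotypes. Within the Arabic-numbered control animals they did not, with means of 6.46 after cocaine and 6.06 after saline. Klf4 and Klf10 did not overlap in that comparison either, and the share of all kept probe sets without overlap was not counted for it. The fitted difference of the brighter Klf6 probe set was 0.35 ± 0.14 in control mice and 0.01 ± 0.14 in mutant mice (SE), and neither passed. Its averaged difference was 0.18 ± 0.10 (SE, 95% interval -0.03 to 0.40). The dimmer kept Klf6 probe set was near the floor, from 3.93 to 5.93 over all arrays, and stood at 0.06 ± 0.27.

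Klf3 recruits CtBP corepressors and acts mainly as a repressor in red cell and fat development. Its brighter kept probe set ran from 6.48 to 6.99 in mutant cocaine and from 6.22 to 6.86 in control cocaine animals, against 6.94 to 6.96 in mutant saline and 6.29 to 7.09 in control saline animals. Its averaged difference was 0.02 ± 0.12 (SE, 95% interval -0.24 to 0.27). The dimmer kept probe set lay at -0.17 ± 0.17. The third probe sets of Klf3 and Klf6 stayed below the filter, at 1.55 to 2.16 and 2.19 to 2.50 over all arrays.

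Klf7, a neuronal member needed for axon outgrowth in mouse sensory and olfactory neurons, was read by 4 kept probe sets. From the brightest to the dimmest, their averaged differences were -0.08 ± 0.11, 0.09 ± 0.07, -0.04 ± 0.13 and 0.14 ± 0.29 (SE). They pointed both ways, and limma adjusted p values ran from 0.866 to 0.959. For the 3 brighter ones the fitted Roman minus Arabic term lay between -0.69 and -0.40, larger in size than their cocaine differences. The term was also larger in size than the cocaine difference for the brighter Klf3 probe set (-0.33), both kept Klf6 ones (-0.25 and 0.09) and both kept Klf13 ones (-0.20 and -0.32). For Klf10 it was 0.33. For Klf7, as for every member, cocaine and saline can be compared only within the Arabic-numbered animals.

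Responses were then compared between the 7 paralogues rather than each against 0. For every pair of genes, the per-array difference between their brightest kept probe sets was compared between cocaine and saline in the 12 Arabic-numbered arrays, by an exact two-sided permutation of treatment within genotype. With 400 relabellings the smallest possible p is 0.005, and p values were adjusted over the 21 pairs. The response differed in 5 pairs. Klf10 responded more than 3 others: Klf7 minus Klf10 was -0.72 (95% interval -1.05 to -0.39), Klf3 minus Klf10 was -0.63 (-0.91 to -0.34) and Klf10 minus Klf13 was 0.52 (0.21 to 0.83). Each had an exact p of 0.005, the smallest possible, and an adjusted p of 0.035. Klf4 responded more than both Klf7 and Klf3, with Klf4 minus Klf7 at 1.00 (0.33 to 1.67) and Klf3 minus Klf4 at -0.90 (-1.48 to -0.33), each with an exact p of 0.01 and an adjusted p of 0.042. Only for Klf7 and Klf10 did the per-array differences of cocaine and saline arrays not overlap.

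Klf2 and Klf6 were not separated from any other member, and Klf4 was not separated from Klf10. Klf4 minus Klf10 was 0.28 (95% interval -0.16 to 0.71, exact permutation p = 0.23, adjusted 0.322). Klf2 minus Klf10 was 0.00 (-0.62 to 0.63, exact permutation p = 0.99), and Klf2 minus Klf4 was -0.27 (-0.82 to 0.28, exact permutation p = 0.245). These intervals include differences as large as several of the 5 that passed. For Klf2 the pair of lowest p was Klf2 minus Klf7 at 0.73 (exact permutation p = 0.045, adjusted 0.118), and for Klf6 it was Klf4 minus Klf6 at 0.73 (exact permutation p = 0.07, adjusted 0.14). The number of pairs that passed fell to 0 without any 1 of mutant cocaine replicates 2 and 3, control cocaine replicate 3 and control saline replicates 1, 2 and 3. It was 3 without mutant saline replicate 1 or 2, in which the pairs of Klf10 with Klf3, Klf7 and Klf13 remained. The same 3 pairs remained, and neither Klf4 pair did, when all kept probe sets of a gene were averaged.

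**Figure D3:**
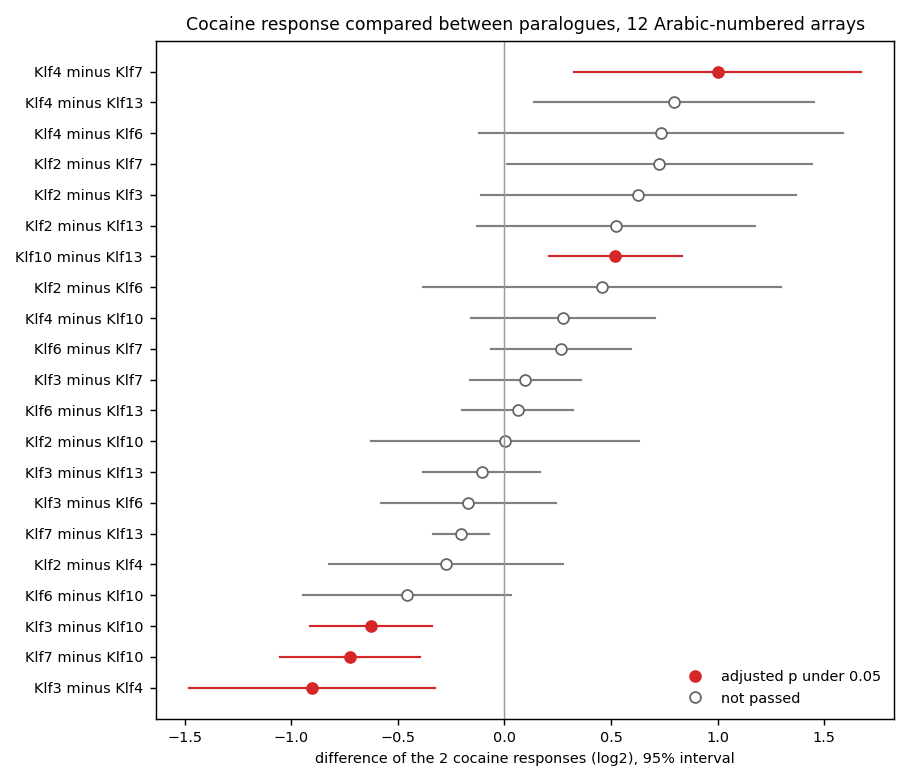
Difference between the cocaine responses of 2 Kruppel-like factors (horizontal axis, log2, first gene minus second) for all 21 pairs in the 12 Arabic-numbered arrays, with points for the estimate, lines for its 95% interval and red for an adjusted p under 0.05 in the exact permutation test. The 5 red pairs all set Klf10 or Klf4 against Klf3, Klf7 or Klf13.

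Between genotypes, Klf13 was the member that stood furthest apart after cocaine. Klf13, also called RFLAT-1, activates the chemokine gene Ccl5 in T cells and can repress through Sin3. The dimmer of its kept probe sets had 9.53, 9.41 and 9.55 in Arabic-numbered and 9.21, 9.38 and 9.28 in Roman-numbered mutant cocaine animals. Control cocaine animals had 9.21, 9.35 and 9.31 in the Arabic-numbered and 8.77, 8.83 and 8.94 in the Roman-numbered series. The mutant arrays lay above the control arrays within each series, by 0.21 and 0.44, while the groups overlapped when the series were pooled. After saline the mutant animals had 9.37, 9.09 and 9.22 and the control animals 9.42, 9.13 and 9.12, which overlapped.

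The fitted Klf13 difference after cocaine, mutant minus control, was 0.32 ± 0.07 (SE, 1.25-fold, 95% interval 1.13 to 1.39). Its unadjusted limma p was 2.82e-04 and its adjusted p 0.427, so it did not pass. The brighter Klf13 probe set was at 0.25 ± 0.10 with the same adjusted p, but at 0.00 within the Arabic-numbered and 0.51 within the Roman-numbered animals. Without mutant cocaine replicate 5 the 2 probe sets were at 0.29 ± 0.07 and 0.18 ± 0.08. The third Klf13 probe set lay between 1.73 and 1.76 on all arrays, far below the filter.

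Over the 13 kept Klf probe sets, 0 passed between mutant and control after cocaine, where 0% of all kept probe sets passed in limma. At an unadjusted p under 0.05 there were 3, both of Klf13 and the brightest of Klf7 (0.25 ± 0.11, SE), all higher in the mutant, while 11.6% of all probe sets reached that level. Without control cocaine replicate 4 the Klf7 value was 0.17 ± 0.09 (unadjusted p = 0.0868), and with no series term its unadjusted p was 0.0918. Within the Roman-numbered arrays, 5 of 13 Klf probe sets were higher in all 3 mutant than in all 3 control animals, 2 of Klf13, 2 of Klf7 and 1 of Klf4, and 7.91% of all kept probe sets did so. Within the Arabic-numbered arrays this held for 1 of 13, the dimmer of Klf13, and for 6.08% of all. Probe sets of 1 gene read the same transcript and are not independent. Klf4 turned its direction between the series, at -0.84 in the Arabic-numbered and 0.74 in the Roman-numbered animals, where the lowest mutant array (5.81) barely exceeded the highest control array (5.80). Klf2 did likewise, at -0.44 and 0.53. Klf10 was at -0.25 and 0.06.

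**Figure D4:**
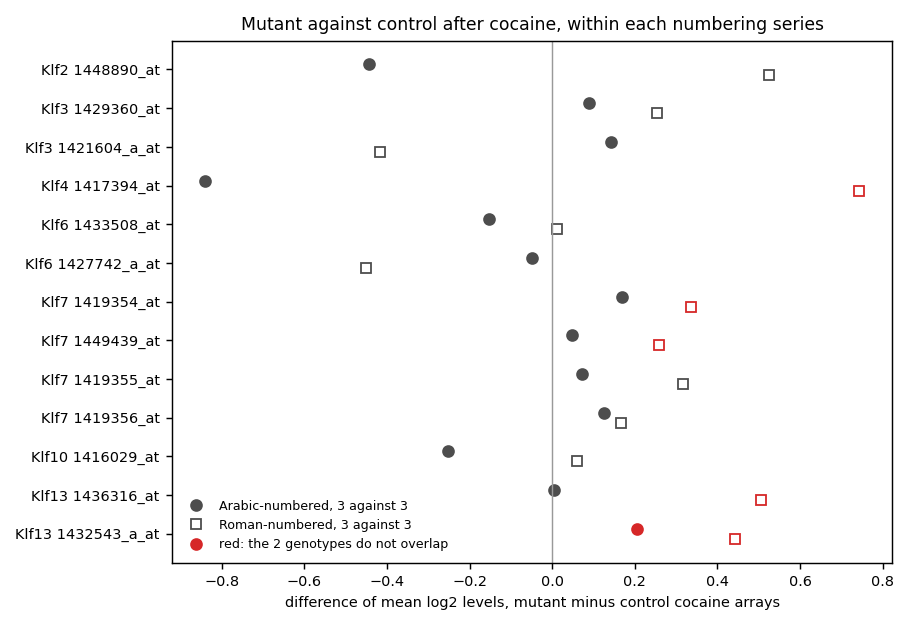
Mutant minus control difference of mean log2 level after cocaine (horizontal axis) for the 13 kept Kruppel-like factor probe sets, with filled circles for the 3 against 3 Arabic-numbered arrays, open squares for the 3 against 3 Roman-numbered arrays and red where the genotypes do not overlap. The dimmer kept Klf13 probe set is red in both series, at 0.21 and 0.44, and Klf4 lies on opposite sides of 0.

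Low values were found in Roman-numbered animals of both genotypes. In control cocaine animals, 7 of 13 Klf probe sets were lower in all 3 Roman-numbered than in all 3 Arabic-numbered arrays, against 17.8% of all kept probe sets. They were the brighter Klf3 and Klf6 probe sets, the 3 brighter of Klf7 and both kept ones of Klf13. In mutant cocaine animals this held for both kept Klf3 probe sets, the 3 brighter of Klf7 and the dimmer kept one of Klf13. The brighter Klf6 and Klf13 probe sets overlapped there, and the share of all probe sets was not counted for mutant animals. The series is a numbering given in the titles, and what differed between the animals is not stated.

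After saline, 0 of 13 Klf probe sets passed between mutant and control, and 0% of all kept probe sets did in limma. At an unadjusted p under 0.05 there were also 0 members, and 2.76% of all probe sets. Klf10 was at -0.34 ± 0.18 (SE) in the mutant, with overlapping groups. The dimmer kept Klf6 probe set was the 1 kept member whose groups did not overlap, with 4.37, 4.45 and 4.40 in mutant and 5.17, 4.96 and 4.60 in control saline animals. Its difference was -0.50 ± 0.38. Counting both directions, 11.7% of all kept probe sets had no overlap between the genotypes after saline, and 4.56% were lower in the mutant without overlap.

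The cocaine response was also estimated within each genotype. In mutant mice Klf10 was 0.76 ± 0.17 above saline (SE, limma adjusted p = 0.259), Klf4 1.01 ± 0.43 and the dimmer Klf13 probe set 0.33 ± 0.09. In control mice Klf10 was at 0.52 ± 0.17, the brighter Klf6 probe set at 0.35 ± 0.14, Klf4 at 0.83 ± 0.43, Klf2 at 0.69 ± 0.36 and the same Klf13 probe set at 0.01 ± 0.09. Both genotypes share 1 series term in this fit. Within the Arabic-numbered animals alone, Klf4 was 0.61 above saline in mutant and 1.22 in control mice, the reverse order. In the same arrays Klf2 was at 0.35 and 0.94, and Klf10 at 0.68 and 0.60. The brighter Klf6 probe set was at -0.03 and 0.40 there, and the dimmer Klf13 one at 0.27 and 0.07. Of the 13 members 0 passed in limma in mutant mice, where 0.0473% of all kept probe sets did, and 0 in control mice, where 0.11% did. At an unadjusted p under 0.05 there were 3 members in mutant mice (Klf10, Klf4 and the dimmer Klf13 probe set) and 2 in control mice (Klf10 and the brighter Klf6 probe set), against 6.95% and 2.6% of all probe sets.

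The difference between these responses, mutant minus control, was tested as the genotype by cocaine interaction. It was 0.24 ± 0.22 (SE) for Klf10, 0.18 ± 0.57 for Klf4, -0.10 ± 0.47 for Klf2 and 0.32 ± 0.12 for the dimmer Klf13 probe set. Over 28 alternatives the Klf10 value ran from 0.08 to 0.40, while Klf4 ran from -0.61 to 0.48 and Klf2 from -0.58 to 0.14, so that neither kept its sign. The brighter Klf6 probe set had the lowest value of the 13, -0.34 ± 0.18, and ran from -0.48 to -0.21 over the alternatives. After saline it was 0.27 ± 0.15 higher in mutant than in control mice, which enters its interaction. In limma 0 of 13 members passed, as did 0% of all kept probe sets, and adjusted p values were 0.992 or above. At an unadjusted p under 0.05 there was 1 member, the Klf13 probe set, and 2.68% of all probe sets. The 95% interval for Klf10, -0.24 to 0.72, includes a response in the mutant larger or smaller than that in control mice. Klf10 in both genotypes and Klf13 in mutant mice share their saline arrays with the other contrasts of the same fit.

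Among the other Kruppel-like factors, 4 of 10 listed genes were kept and 0 passed in any direction for cocaine averaged over genotypes. All 4 were above 0, with a median of 0.15. Klf5, a factor of proliferating epithelial and vascular cells, was at 0.37 ± 0.08 (SE, limma adjusted p = 0.0679), and Klf9, a target of glucocorticoid and thyroid hormone, at 0.12 ± 0.06. Of the 9 related Sp factors 3 were kept and 0 passed, with Sp1 at -0.32 ± 0.30 and Sp3 at -0.14 ± 0.13. Of 13 corepressors, coactivators and ubiquitin ligases of the family 12 were kept and 0 passed (median 4.69e-04), with the ligase Wwp1 at -0.15 ± 0.06 and Ctbp2, the partner of Klf3, at 0.08 ± 0.06. The MEF2, ERK5 and serum response factor inputs were listed by 14 symbols, in which Mkl1 and Mrtfa, like Mkl2 and Mrtfb, name the same gene. Of these symbols 9 were kept and 0 passed (median 0.01), with Elk3 at -0.33 ± 0.17 and Elk4 at 0.19 ± 0.14. Of 11 TGF-beta pathway genes, read beside Klf10, 9 were kept and 0 passed (median 0.05), with Smad2 at -0.18 ± 0.10 and Tgfbr2 at 0.16 ± 0.13.

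Markers of the cells the tissue can hold were read in the same fits, with 0 genes passing for cocaine averaged over genotypes in every list. The medians were 0.16 for 5 kept mural markers, 0.07 for 11 microglial, 0.01 for 10 astrocyte, 0.03 for 10 oligodendrocyte and -0.01 for 9 medium spiny neuron markers. None of the 4 red blood cell genes was kept. For mutant against control after cocaine, where Klf13 was highest, all 10 oligodendrocyte markers lay above 0 with a median of 0.08, against 0.01 over all kept probe sets, and 0 passed. Their summed linear level ran from 54300 to 64681 in mutant cocaine and from 52449 to 57774 in control cocaine arrays. After saline, where the dimmer Klf13 probe set was at 0.00, 8 of the 10 oligodendrocyte markers were also above 0 (median 0.06). After cocaine the medians were 0.06 for astrocyte, 0.05 for endothelial and 0.05 for mural markers. They were -0.01 for microglial and -0.01 for medium spiny neuron markers. The part of these cell types in the Klf13 difference was not tested.

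Genes whose level followed each member most closely over the 18 arrays were found by Pearson correlation, which is a description. For Klf10 these were Jun at 0.93, Egr2 at 0.92 and Nr4a1 at 0.91, all transcription factors induced by neuronal activity. Without mutant cocaine replicate 5 they were Dnajb5 at 0.94, Jun at 0.94 and Egr2 at 0.92. For Klf4 they were Shisa2 at 0.95, Ino80 at 0.89 and Phlda1 at 0.88, and without that array the same 3 genes stood at 0.93, 0.86 and 0.84. For the brighter Klf13 probe set they were Cdr2l at 0.95, Cdk9 at 0.91 and Zmiz2 at 0.91, and without that array the same 3 genes at 0.97, 0.89 and 0.89. For Klf2 they were Setd4 at 0.86, Tsc22d1 at 0.85 and Nfkbia at 0.84, of which only Setd4 (0.84) was among the first 3 without that array. For Klf3 they were Cacng4 at 0.88, Aqr at 0.85 and Camkk2 at 0.84, for Klf7 Cpeb3 at 0.89, AI504432 at 0.88 and Glcci1 at 0.88, and for Klf6 Nrbp2 at 0.78, Casp9 at 0.77 and Uap1l1 at 0.74. Without that array Cacng4 (0.89) was still among the first 3 for Klf3, Glcci1 (0.90) for Klf7, and Nrbp2 (0.79) and Casp9 (0.77) for Klf6. These arrays share treatment, series and RNA quality, all of which enter such correlations.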

How the data were processed

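The authors deposited log2 expression values for 22690 probe sets on 18 arrays, made with GCRMA in R 2.4.1 per the submitters' processing notes, with settings not given in the sources used here. GCRMA corrects background from probe sequence and equalises array distributions, so changes in total signal are removed and fold changes of dim probe sets are understated. The number of arrays limits the precision. Replicates are separate animals per the labels.

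From these values, 64 control probe sets and those not above log2 4 in at least 3 arrays were left out, which left 12674. Limma 3.58.1 in R 4.3.3 fitted the 4 groups and the numbering series with an intensity trend (13 residual and 3.13 prior degrees of freedom), with Benjamini-Hochberg adjustment over all kept probe sets and 0.05 as the threshold. Symbols came from the platform annotation: 20393 probe sets carried 1, 691 several and 1606 none. Both tests were run on simulated data with independent normal noise. These simulations held no series shift and no effect shared within an array, so they do not bear on either. Pair intervals use the residual spread of the 12 arrays.

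All Klf probe sets and Camk4 are named. Lists name members that passed in any contrast and the 2 of smallest p for averaged cocaine, each gene through its brightest kept probe set; in marker lists only medians are given. Likeness names 3 genes per member. The members and lists were chosen with earlier results of these data known. Alternatives were 10 other settings and leaving out each of 18 arrays.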

Additional observations from a re-analysis of the deposited data

Results flagged for a closer look

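In 5 of 34 cases, each 1 probe set in 1 group of 6 arrays, 1 array lay far from the others, by a gap to the nearest array that was large against the group's range. Chance gives about 1 in 20, or 1.7 here, but the 34 cases are 17 probe sets on the same arrays and are not independent. Mutant cocaine replicate 5 accounts for 3 of them. It was lowest for the dimmer kept Klf3 probe set at 4.66, where the other 5 arrays ran from 5.62 to 5.80. It was highest for the kept Klf4 probe set at 7.07, against 5.30 to 5.85 in the others, and for the dim Klf4 probe set at 3.97, against 2.51 to 2.91. This is the array with the largest actin 3' minus 5' difference, 3.59, and the part of that in the Klf values was not tested.

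The remaining 2 concern the third Klf3 probe set, which lay below the filter on every array. Mutant cocaine replicate 1 was lowest at 1.55, against 1.62 to 1.64, and control cocaine replicate 6 was highest at 2.16, against 1.61 to 1.63. Both lie far below the filter level.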

How the results depend on the processing

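For cocaine averaged over genotypes, 1 Klf probe set (Klf10) passed in place of 0 with no series term (adjusted p = 0.00411), with array weights (0.017), in the Arabic-numbered arrays only (0.0171) and with the actin term (0.0446). In these fits 0.529%, 0.813%, 3.39% and 0.26% of all kept probe sets passed, against 0.221% in the reported fit. Klf10 passed in 9 of 28 alternatives in all. Leaving out 1 array gave 0 to 1 and a Klf10 difference of 0.56 to 0.72 (adjusted p 0.0161 to 0.198), with 1 passing without mutant cocaine replicate 5 or 6, mutant saline replicate 3 or control cocaine replicate 1 or 4. The Klf10 difference was above 0 in all 28, but several of these could not move it. With the series term alone, the averaged cocaine difference of every probe set rests on the Arabic-numbered arrays. It stays the same, 0.64 for Klf10, under another filter, other moderation or either block, and without any Roman-numbered array. In the other 5 contrasts 0 Klf probe sets passed under every alternative. With the replicate block 0 passed in every contrast, and the Klf10 adjusted p was 0.0841. Replicate numbers were not taken to pair animals, since residuals of same-numbered arrays correlated from -0.39 to 0.34 and 4 of 18 arrays were closest to one of their own number. The number of paralogue pairs with different responses was 5. It was 11 with all 18 arrays, which adds the Roman-numbered animals to cocaine only, 3 with all kept probe sets of a gene averaged, 4 with labels permuted within blocks of consecutive animal numbers, and 0 to 7 with 1 array left out. Both Klf4 pairs were lost with probe sets averaged, and the pair of Klf4 and Klf7 was lost with the blocks. For cocaine averaged over genotypes 4 of 13 Klf probe sets turned sign under some alternative, none of which passed in any setting. The same count was 8 for cocaine in control mice, 6 in mutant mice, 5 for genotype in saline animals, 4 for genotype in cocaine animals and 7 for the interaction. The stricter filter left no value for the dimmer kept Klf6 probe set.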
